A study of Mus musculus with 6 samples.

Results

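Mitochondrial fatty acid beta-oxidation was examined through 34 genes for its enzymes, chosen by name and ordered by step and chain length. Of these genes, 33 had a probe set of their own among the 19937 genes tested, and Cpt1b shared its only probe set with a read-through locus. Gene expression was measured in the inguinal depot of white fat, which lies under the skin, in 3 mice with Atf7 knocked out (KO) and 3 wild-type (WT) littermates. All 6 were C57BL/6 males aged 5 weeks, bred from Atf7 heterozygotes, with 1 Affymetrix array per mouse. The part of Atf7 that the allele removes, and whether it does so in all cells, is not given in the sources used here.

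Beta-oxidation shortens fatty acids inside mitochondria. Long chains enter as carnitine esters, and a repeated cycle of dehydrogenation, hydration, a second dehydrogenation and thiolysis then releases acetyl-CoA. The first dehydrogenation passes its electrons through the electron transfer flavoprotein to the respiratory chain. White adipocytes mainly store and release fatty acids, while brown and beige adipocytes burn them for heat.

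Atf7, a basic leucine zipper transcription factor, checked the labels. Its probe set 10433032 was 6.22, 6.53 and 6.49 on the log2 scale in KO arrays, against 8.95, 9.20 and 9.07 in WT arrays, and fell by 2.66 (SE 0.12, limma adjusted p 0.00658 over all probe sets). Leaving out WT replicate 1 gave an adjusted p of 0.0745, and leaving out WT replicate 3 gave 0.147. The other Atf7 probe set differed by -0.17. All 7 measured adipocyte markers were brighter than the median gene, as were all measured B cell, T cell, macrophage and endothelial markers. KO replicate 3 stood apart, correlating at 0.969 to 0.981 with the other 5 arrays across probe sets, which correlated at 0.984 to 0.990 among themselves. All 17 measured B and T cell markers were lower in KO. Their mean level, centred per gene, was -0.11, 0.64 and -2.51 in KO arrays and 0.68, 0.49 and 0.80 in WT arrays. The 12 skeletal muscle markers lay at 1.53, -1.39 and -1.57 in KO arrays and at -1.51, 2.40 and 0.54 in WT arrays. In whole tissue, fewer cells of a type and less RNA per cell cannot be told apart.

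Most beta-oxidation genes were higher in KO fat, by amounts that did not pass adjustment over all genes. Of the 33 measured genes, 31 had a positive KO minus WT difference, where 53% of all genes did, and the median was 0.40 on the log2 scale against 0.01 for all genes. At an unadjusted p under 0.05, 12 of the 33 were higher in KO, where 4.99% of all genes were, and 1 was lower, where 2.48% of all genes were. With limma's adjusted p under 0.05, 0 of the 33 passed, as did 0% of all genes in either direction. This fit took the brightest probe set of each gene, so Atf7 entered it through 10433034, which differed by -0.17, and not through 10433032. The smallest adjusted p among the 33 was 0.494. With array weights, whose estimation did not converge, 15 of the 33 passed, as did 3120 of the 19937 genes. The 15 include Bdh1, which was lower in KO, and of the 3120 genes 1688 were higher and 1432 lower. For 13 of the 33, all KO arrays were above all WT arrays, which held for 7.96% of all genes. An exact permutation test of 1 gene with groups of 3 cannot go below 0.1.

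**Figure D1:**
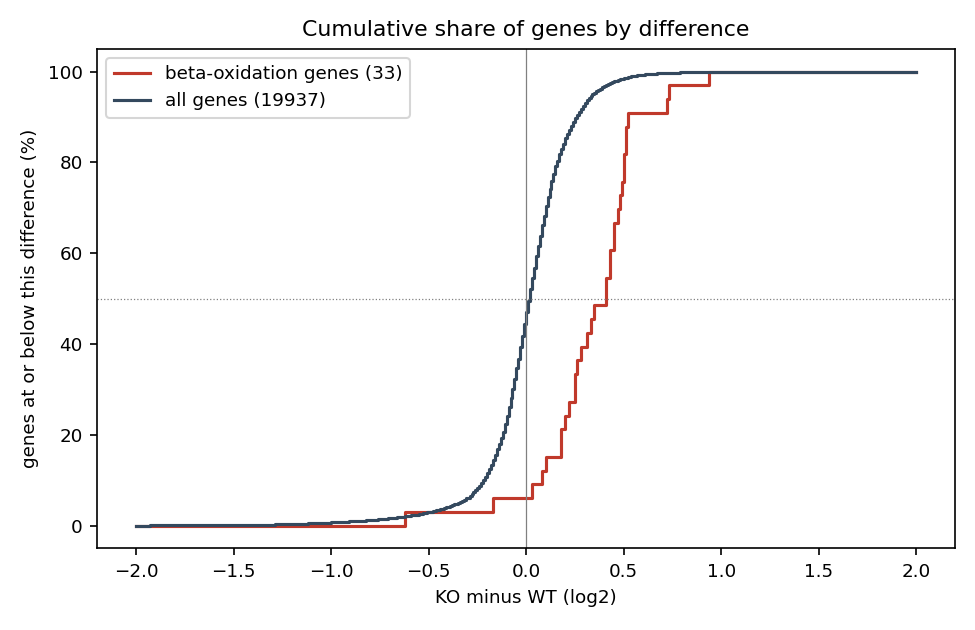
Cumulative share of genes (vertical axis, percent) at or below each KO minus WT difference (horizontal axis, log2), for the 33 beta-oxidation genes and for all 19937 genes. The curve of the beta-oxidation genes lies to the right, crossing 50% at 0.40, while that of all genes crosses at 0.01.

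Median differences by step ran from -0.22 to 0.51, without the shared probe set of Cpt1b. The median difference was 0.24 for the carnitine shuttle, 0.44 for acyl-CoA dehydrogenases and 0.37 for the hydratases, dehydrogenases and thiolases of the later steps. It was 0.45 for the enzymes of unsaturated chains, 0.51 for electron transfer, 0.17 for the propionyl-CoA branch and -0.22 for the 2 ketone body enzymes. Of these 2 enzymes, 1 was lower at an unadjusted p under 0.05, where 2.48% of all genes were. Of all genes, 4.99% were higher at an unadjusted p under 0.05. Among the electron transfer genes 3 of 3 were, as were 4 of 10 dehydrogenases and 4 of 8 later-step genes. No carnitine shuttle gene with its own probe set was, and neither was any gene of the propionyl-CoA branch. Differences between these groups of genes were not tested.

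**Figure D2:**
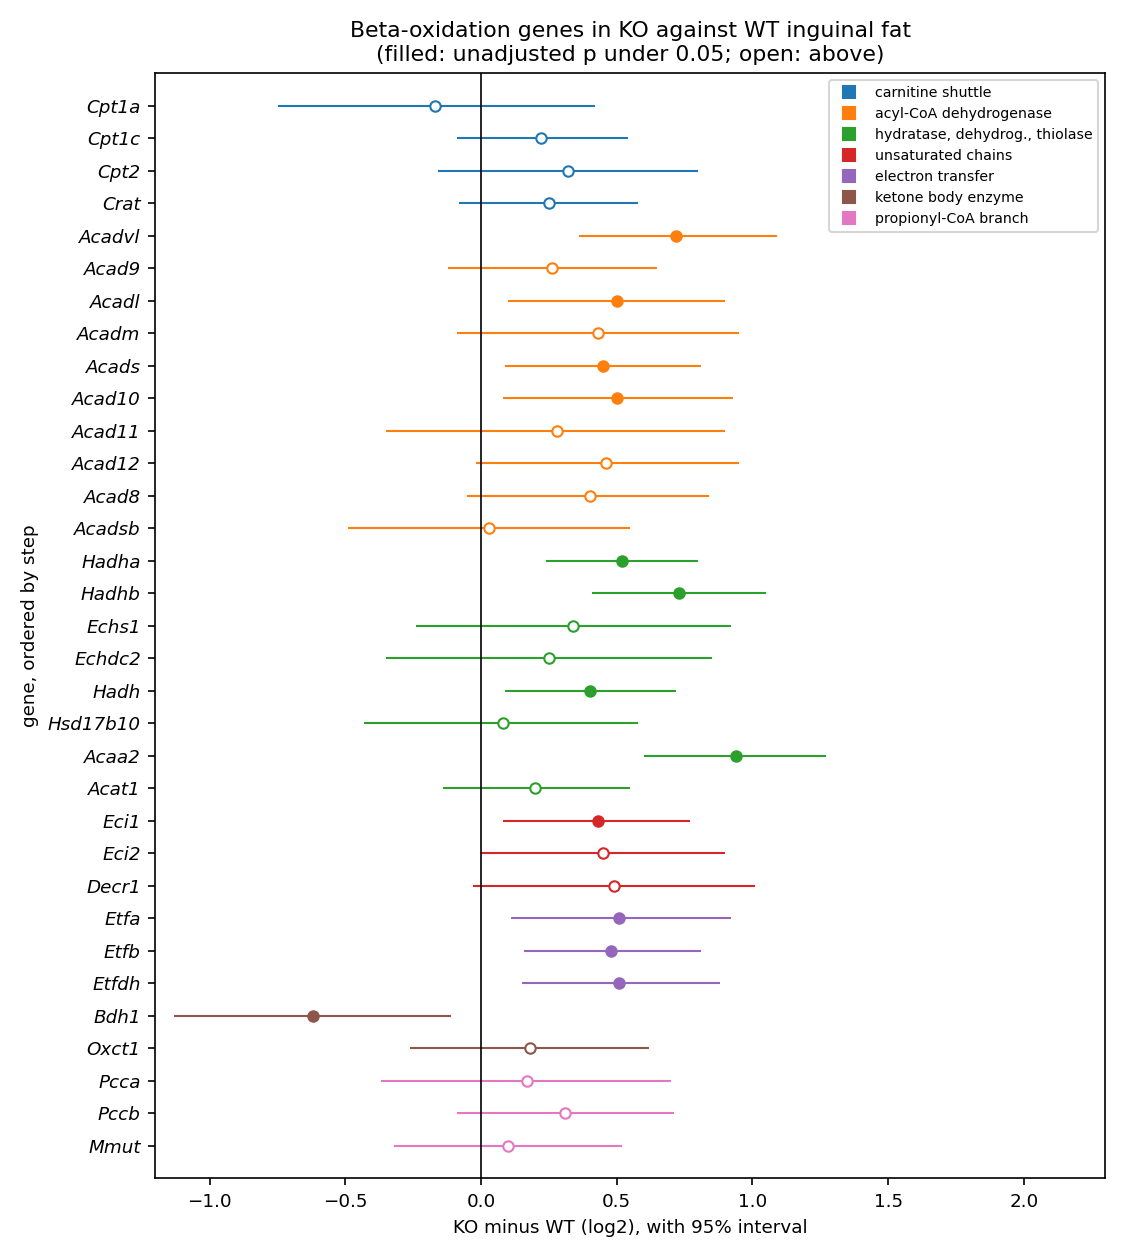
KO minus WT difference (log2) of each of the 33 beta-oxidation genes with its own probe set, in order of the steps. Points are limma estimates, bars their 95% intervals, and filled points have an unadjusted p under 0.05. Acaa2 lies farthest right at 0.94 and Bdh1 farthest left at -0.62.

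Entry into mitochondria is set by carnitine palmitoyltransferase 1 on the outer membrane, which malonyl-CoA inhibits. Its gene family has 3 isoforms, not all of which are known for this role. The probe set listed for Cpt1b, the isoform of muscle and brown fat, is also listed for Gm44502, the read-through transcript with the neighbouring gene Chkb, so their signals cannot be told apart. It was 10.12, 10.25 and 10.61 in KO arrays, against 8.70, 8.22 and 8.02 in WT arrays. All KO arrays were thus above all WT arrays. The group means differed by 2.01 on the log2 scale or 4.04-fold (SE 0.21, 95% interval 1.52 to 2.51). Limma's adjusted p over all probe sets was 0.227. Among the alternatives run it was 0.0601 with array weights, whose estimation did not converge, and 0.178 to 0.833 in the others. The difference was 1.87 without KO replicate 3. It was 1.84 when the mean level of lymphocyte markers was a covariate and 1.90 when that of muscle markers was. The mean level of muscle markers was highest in WT replicate 2 and lowest in KO replicate 3, and its part in this difference was not tested.

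Cpt1a, the isoform of liver and most other tissues, was 9.29, 8.73 and 9.00 in KO arrays and 9.17, 8.71 and 9.64 in WT arrays. The groups overlapped, with a difference of -0.17 (SE 0.25, 95% interval -0.75 to 0.42) that was 0.07 without WT replicate 3. Cpt1c, an isoform known mainly from neurons, was 7.56, 7.21 and 7.12 in KO arrays and 7.06, 7.18 and 6.98 in WT arrays. Its difference was 0.22 (SE 0.13), and KO replicate 3 lay between WT replicates 1 and 2. Cpt2, which re-forms acyl-CoA on the inner membrane, differed by 0.32 (SE 0.20), and Crat, which handles acetyl-carnitine, by 0.25 (SE 0.14). In both, KO replicate 2 lay within the WT range. Limma's adjusted p for these 4 genes lay between 0.624 and 0.845.

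**Figure D3:**
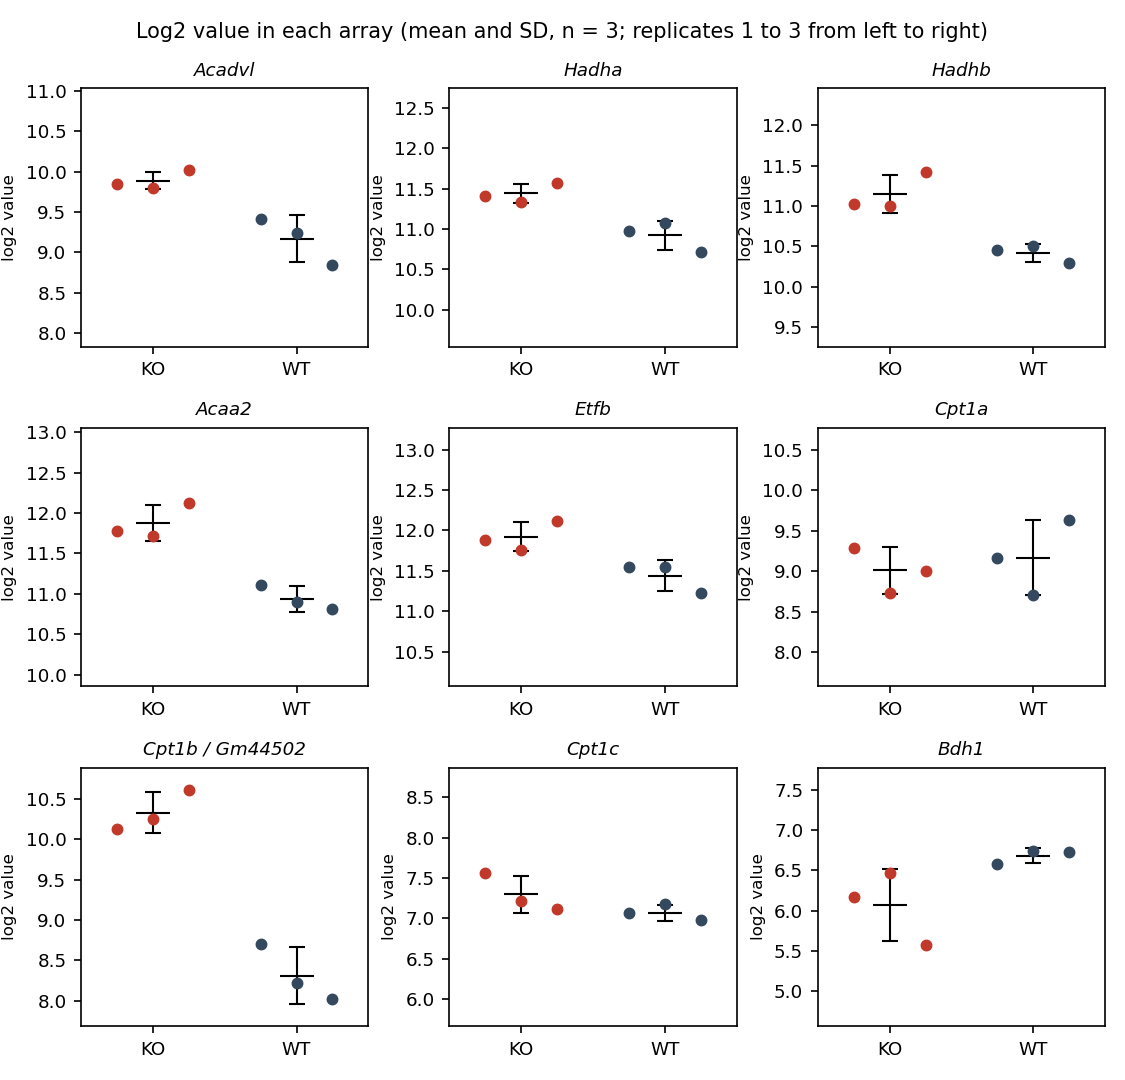
Log2 value of 9 probe sets in each array (vertical axes of equal span, replicates 1 to 3 from left to right, KO left of WT), with mean and SD (n = 3). KO and WT do not overlap for Acadvl, Hadha, Hadhb, Acaa2, Etfb, the probe set of Cpt1b and Gm44502, and Bdh1, which is lower in KO, and they overlap for Cpt1a and Cpt1c.

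Acyl-CoA dehydrogenases open each round, with enzymes for successive chain lengths. All 10 had positive differences, from 0.03 to 0.72. Acadvl, for very long chains, was 9.85, 9.80 and 10.02 in KO arrays, against 9.41, 9.24 and 8.85 in WT arrays. It was 1.65-fold higher (log2 0.72, SE 0.15), and its difference stayed between 0.57 and 0.85 when each array was left out in turn. Acadl, for long chains, was 11.34, 11.37 and 11.52 in KO arrays, against 11.12, 11.09 and 10.52 in WT arrays. The groups did not overlap, but much of the difference of 0.50 (SE 0.17) lay in WT replicate 3, without which it was 0.30.

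Acadm, for medium chains, averaged 11.57 ± 0.46 in KO and 11.14 ± 0.13 in WT (SD, n = 3), with KO replicate 2 at 11.13, inside the WT range. Acads, for short chains, was 10.22, 10.08 and 10.54 in KO arrays, against 9.96, 9.93 and 9.60 in WT arrays. Every KO array was above every WT array, with a difference of 0.45 (SE 0.15). Acad10, a family member less well characterised, was 7.28, 7.21 and 7.77 in KO arrays and 7.00, 7.08 and 6.66 in WT arrays (log2 0.50, SE 0.18). Acad12, another member of the family, also had no overlap between groups (log2 0.46, SE 0.21) but was dimmer than the median gene. Acad9, which also serves in complex I assembly, differed by 0.26 (SE 0.16) and Acad11 by 0.28 (SE 0.27), with overlapping groups.

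The 2 family members of branched-chain amino acid breakdown overlapped between groups. Acad8, for valine, differed by 0.40 (SE 0.19). Acadsb, for isoleucine, had the lowest difference among the dehydrogenases, at 0.03 (SE 0.22, 95% interval -0.49 to 0.55). It was 9.62, 9.07 and 9.85 in KO arrays and 9.35, 9.78 and 9.32 in WT arrays, so the array with the lowest value was a KO array. Across the 10 dehydrogenases limma's smallest adjusted p was 0.622.

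Hadha and Hadhb encode the alpha and beta subunits of the mitochondrial trifunctional protein, which carries long chains through hydration, the second dehydrogenation and thiolysis. In the RefSeq promoter table (GRCm38.p6) their transcripts start 272 bases apart and run in opposite directions, so the windows of 300 bases around the 2 starts share 228 bases. The window of Hadhb is shown because the 2 genes have one upstream region and were both higher in KO. It covers chr5:30155003-30155302 on the plus strand, and the capitals mark the bases that it shares with the window of Hadha, chr5:30154931-30155230 on the minus strand.

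Hadhb: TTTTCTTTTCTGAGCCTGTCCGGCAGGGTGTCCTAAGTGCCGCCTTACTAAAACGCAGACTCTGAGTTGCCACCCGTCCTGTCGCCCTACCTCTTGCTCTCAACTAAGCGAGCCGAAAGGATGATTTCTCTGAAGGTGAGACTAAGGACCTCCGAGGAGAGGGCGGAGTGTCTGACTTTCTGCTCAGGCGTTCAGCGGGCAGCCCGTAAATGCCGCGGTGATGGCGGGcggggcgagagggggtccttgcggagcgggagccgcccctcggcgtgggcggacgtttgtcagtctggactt

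Hadha was 11.41, 11.34 and 11.57 in KO arrays, against 10.97, 11.07 and 10.72 in WT arrays. Hadhb was 11.03, 11.00 and 11.42 in KO arrays, against 10.45, 10.51 and 10.30 in WT arrays. Neither gene overlapped between groups, and both had the highest value in KO replicate 3 and the lowest in WT replicate 3. Their differences were 0.52 (SE 0.12, 1.43-fold) and 0.73 (SE 0.14, 1.66-fold). The subunits of the electron transfer flavoprotein, Etfa and Etfb, lie on different chromosomes, and their differences were 0.51 and 0.48.

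Acaa2, the thiolase for medium and shorter chains, had the largest difference of the 33 genes. It was 11.78, 11.72 and 12.13 in KO arrays, against 11.11, 10.90 and 10.81 in WT arrays. The lowest KO array was clearly above the highest WT array. Acaa2 was higher in KO by a mean of 0.94 (SE 0.14, 95% interval 0.60 to 1.27) or 1.91-fold, with a limma adjusted p of 0.494. By p it ranked 11 among all genes tested. The difference was 0.81 without KO replicate 3 and 0.76 with the lymphocyte covariate.

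Hadh, which performs the second dehydrogenation of medium and short chains, was 12.28, 12.07 and 12.55 in KO arrays, against 11.92, 11.94 and 11.83 in WT arrays. The groups did not overlap, and their means differed by 0.40 (SE 0.13). Echs1, the hydratase for short chains, differed by 0.34 (SE 0.25), and by 0.07 without KO replicate 3. Echdc2, a protein with a hydratase domain, differed by 0.25 (SE 0.26), and Acat1, which splits acetoacetyl-CoA, by 0.20 (SE 0.15). Hsd17b10, a dehydrogenase of isoleucine breakdown that is also part of mitochondrial RNase P, was 10.94, 10.58 and 11.35 in KO arrays and 10.73, 11.17 and 10.76 in WT arrays. All WT arrays lay inside the range of the KO arrays, with a difference of 0.08 (SE 0.21).

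Eci1, Eci2 and Decr1 reposition or remove double bonds so that unsaturated chains can enter the cycle. Eci1 was 10.48, 10.22 and 10.73 in KO arrays, against 10.05, 10.18 and 9.91 in WT arrays. Its lowest KO array was just above the highest WT array, and the difference was 0.43 (SE 0.15). Eci2 and Decr1 differed by similar amounts, 0.45 (SE 0.19) and 0.49 (SE 0.22), but KO replicate 2 lay within the WT range in both. Without KO replicate 3 the differences were 0.29 for Eci2 and 0.24 for Decr1, and with the lymphocyte covariate 0.19 and 0.12.

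All 3 genes of electron transfer were higher in every KO array than in any WT array, as held for 7.96% of all genes. The 3 genes had the same highest and lowest arrays, KO replicate 3 and WT replicate 3. Etfa, the alpha subunit of the flavoprotein, was 10.46, 10.60 and 10.88 in KO arrays, against 10.32, 10.28 and 9.81 in WT arrays (log2 0.51, SE 0.17). Etfb, the beta subunit, was 11.88, 11.76 and 12.12 in KO arrays, against 11.55, 11.55 and 11.22 in WT arrays (log2 0.48, SE 0.14). Etfdh, the membrane oxidoreductase that passes these electrons to ubiquinone, was 9.94, 9.86 and 10.28 in KO arrays, against 9.58, 9.69 and 9.27 in WT arrays (log2 0.51, SE 0.15). The gaps between groups were narrow for Etfa and Etfdh. Limma's adjusted p was 0.622 for each of the 3.

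Bdh1, which interconverts acetoacetate and 3-hydroxybutyrate, was 1 of 2 genes with a negative difference, beside Cpt1a, and the only one of the 33 lower in KO at an unadjusted p under 0.05. It was 6.17, 6.46 and 5.57 in KO arrays, against 6.58, 6.74 and 6.73 in WT arrays, with all KO arrays below all WT arrays, as held for 5.97% of all genes. The difference was -0.62 (SE 0.22, limma adjusted p 0.622), or 1.54-fold lower, in a gene dimmer than the median gene. KO replicate 3 was lowest in Bdh1 and also lowest in lymphocyte markers. The difference was -0.37 without that array and -0.26 with the lymphocyte covariate. Oxct1, which activates ketone bodies for use as fuel, differed by 0.18 (SE 0.19) and by 0.01 without KO replicate 3.

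The propionyl-CoA branch, which takes the end product of odd chains to succinyl-CoA, had the median difference smallest in size, 0.17. Pcca and Pccb, the subunits of propionyl-CoA carboxylase, had differences of 0.17 (SE 0.23) and 0.31 (SE 0.17). Methylmalonyl-CoA mutase, listed as Mut and annotated as Mmut, was 9.79, 9.46 and 10.13 in KO arrays and 9.77, 9.81 and 9.49 in WT arrays. KO held both the highest and the lowest array, and the difference was 0.10 (SE 0.18, 95% interval -0.32 to 0.52).

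The same arrays were high or low for most of these genes. KO replicate 3 had the highest value of all 6 arrays in 30 of the 33 genes, and WT replicate 3 the lowest in 26. KO replicate 2 had the lowest value in 5 genes. The shares of all genes with each array highest or lowest were not counted. A trait of these genes thus cannot be told apart from a trait of the arrays, of which KO replicate 3 stood apart across probe sets. Centred per gene, the mean of the 33 genes was 0.15, -0.08 and 0.43 in KO arrays and -0.14, -0.03 and -0.34 in WT arrays. KO replicate 2 was thus below the other KO arrays and close to WT replicate 2. It lay above every WT array in 14 of the 33 genes, against 23 for KO replicate 1 and 30 for KO replicate 3. For these counts, too, the shares of all genes were not counted. The 8 thermogenic adipocyte markers, which include the heat-producing uncoupling protein Ucp1, lay at 0.44, 0.38 and 0.75 in KO arrays and at -0.31, -0.57 and -0.69 in WT arrays. Of the 8, 7 had a positive difference, where 53% of all genes did, and 1, Elovl3, a negative one (-0.06). Fabp3 differed by 0.38 and Dio2 by 0.25, and 2 of the 8 were dimmer than the median gene. Ucp1 itself was 7.49-fold higher in KO (log2 2.91, SE 0.33, limma adjusted p 0.237). The 7 adipocyte markers were between -0.03 and 0.17 in KO arrays and between -0.16 and 0.08 in WT arrays.

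**Figure D4:**
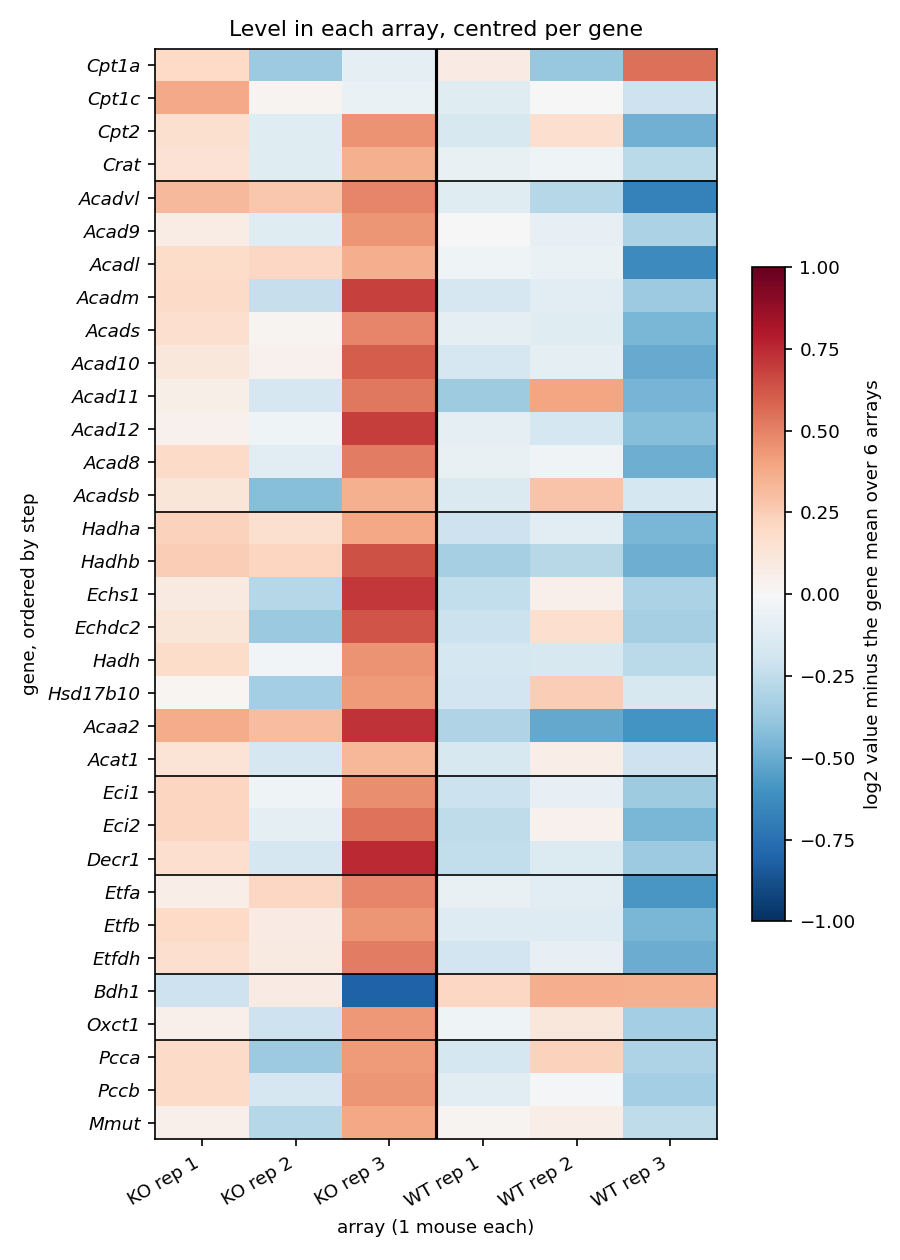
Log2 value of each of the 33 genes (rows, by step, with lines between the groups of steps) in each array (columns, KO left of WT), centred on the gene's mean over 6 arrays. KO replicate 3 is the highest array in 30 genes and WT replicate 3 the lowest in 26, while KO replicate 2 is the lowest in 5. The shares of all genes were not counted.

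The number of genes higher in KO depended on these arrays. The 12 genes at an unadjusted p under 0.05 became 7 without KO replicate 3 and 7 without WT replicate 3, where 3.11% and 2.99% of all genes were higher. They became 23 without KO replicate 2, where 10.4% of all genes were higher. Acadvl, Hadha, Hadhb, Acaa2, Etfb and Etfdh were the 6 that passed this unadjusted threshold without each array in turn. The share of all genes that did so was not counted. The median of the 33 genes was 0.23 with KO replicate 3 left out, 0.26 with WT replicate 3 left out and 0.52 with KO replicate 2 left out. With the lymphocyte covariate it was 0.12, and Acadvl, Hadha, Hadhb, Acaa2 and Etfb were the 5 genes at an unadjusted p under 0.05, where 2.33% of all genes were higher. With the muscle covariate the median was 0.40 and 11 genes were higher at that threshold, where 3.07% of all genes were.

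**Figure D5:**
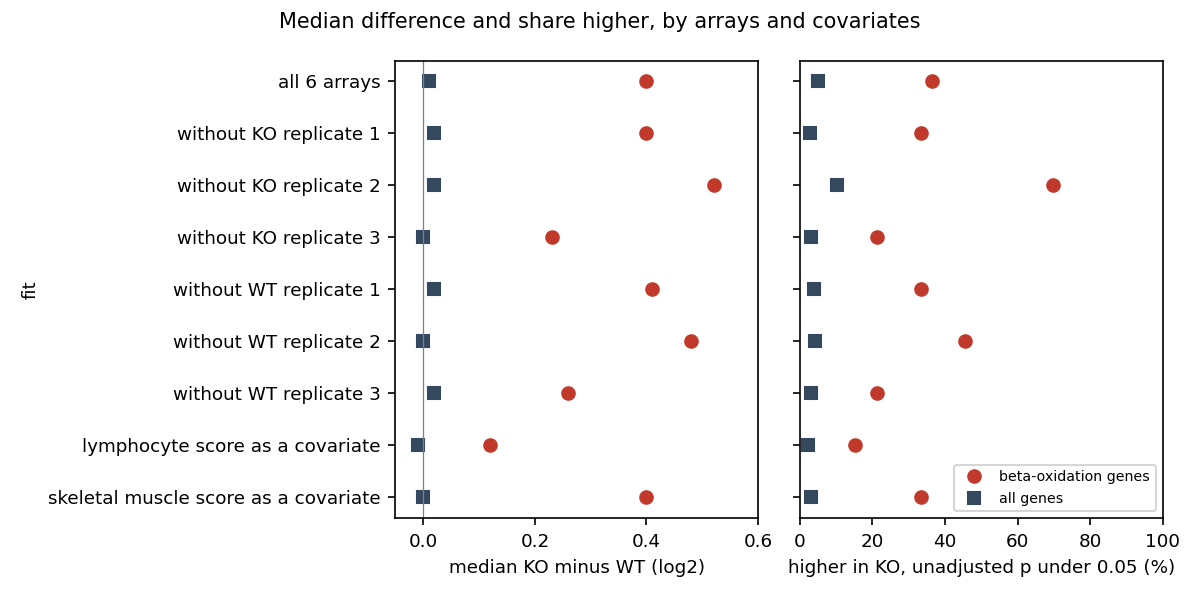
Median KO minus WT difference (left, log2) and share of genes higher in KO at an unadjusted p under 0.05 (right, percent) for the 33 beta-oxidation genes and for all genes, in the fit to all 6 arrays, without each array and with each marker score added. The median of the beta-oxidation genes runs from 0.12 to 0.52 and that of all genes from -0.01 to 0.02.

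Other genes of the pathway, listed by role, had differences of similar size. Of 21 measured, 19 were positive, where 53% of all genes were, and the median was 0.37. At an unadjusted p under 0.05, 8 were higher and 0 lower, where 4.99% and 2.48% of all genes were, and 0 passed adjustment over all genes. Ppara, the nuclear receptor that induces oxidation genes, was 9.44, 8.95 and 9.48 in KO arrays, against 8.58, 7.73 and 7.54 in WT arrays (2.54-fold). The coactivators Ppargc1a and Ppargc1b were 1.82-fold and 1.59-fold higher, and Esrrg, an estrogen-related receptor dimmer than the median gene, 1.46-fold. Acacb, which makes the malonyl-CoA that restrains carnitine palmitoyltransferase 1, was 1.45-fold higher, and Mlycd, which breaks malonyl-CoA down, was 1.37-fold higher. Slc22a5, the gene of the carnitine transporter, was 1.35-fold higher. Ech1, an isomerase of dienoyl-CoA, was 1.41-fold higher. All KO arrays were above all WT arrays in these 8 of the 21 genes, as held for 7.96% of all genes. The 8 were named for their small p, which favours such separation. Limma's adjusted p was 0.622 for each of them.

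Peroxisomal beta-oxidation, which shortens very long chains outside mitochondria, had 11 of 12 measured genes positive, where 53% of all genes were, and a median of 0.24. At an unadjusted p under 0.05, 3 were higher and 0 lower, where 4.99% and 2.48% of all genes were. Ehhadh, its bifunctional hydratase and dehydrogenase, was 1.46-fold higher in KO (log2 0.55, SE 0.16, limma adjusted p 0.622). The difference between the peroxisomal and mitochondrial lists was not tested.

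Promoter windows, from 250 bases before to 50 bases after each start, were found for 27 of the 33 genes. The 6 without one were Crat, Acad9, Acaa2, Acat1, Decr1 and Mmut. Of the 29 windows of the 27 genes, 0 held the cAMP response element TGACGTCA bound by ATF and CREB factors, which 1.79% of all 32851 windows held. The extended half-site TNAAGGTCA of estrogen-related receptors was in 0 of the 29 and in 1.28% of all windows. The direct repeat of AGGTCA with 1 base between, bound by PPAR and RXR receptors, was in 0 of the 29 and in 0.0396% of all windows. Both strands were searched for exact matches, the last 2 motifs share AGGTCA, and the count of 0 says only that these letters are not in these windows. The share of G and C bases in the 29 windows had a median of 60.3% (47.3% to 77.0%), where the median of all windows was 52.7%.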

How the data were processed

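The values are log2 expression levels as deposited, with 34760 probe sets on each array. The tools listed for them, per the submitters' processing notes, are RMA, affy and limma, and their versions, options and genome build are not given in the sources used here. RMA includes quantile normalization, so a shift common to most genes would not be visible. The platform annotation listed 1 gene symbol for 21640 probe sets, several for 1321 and none for 11799. Each gene was represented by its brightest probe set over all arrays, and each of the 33 measured beta-oxidation genes had a single one. Mut was matched to Mmut through a RefSeq gene table (GRCm38.p6). Sample titles gave the groups and replicate numbers.

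KO was compared with WT by limma 3.58.1 (R 4.3.3, default lmFit and eBayes, two-sided), with Benjamini-Hochberg adjustment over 19937 genes and a threshold of 0.05. SEs and 95% intervals are limma's moderated ones. The script was tested on simulated data. Cpt1b and Atf7 were read from the same fit over all probe sets. The lymphocyte score is the mean of 17 gene-centred B and T cell markers, and the muscle score that of 12 muscle markers. Promoter sequences are from RefSeq (GRCm38.p6). Precision is limited by the 3 arrays per group.

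The members, lists and tests were chosen with earlier results of these data known. Values in every array were given for genes at an unadjusted p under 0.05, for the Cpt1 isoforms and for the lowest difference in each step group. Of other pathway genes, the 8 with the smallest p were named. Alternatives covered normalization, dim genes, probe sets, the variance prior, array weights, covariates, the replicate number as a block and each array left out.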

Additional observations from a re-analysis of the deposited data

How the results depend on the processing

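The median of the 33 genes stayed positive under all 17 alternatives, and 24 of the 33 genes kept their sign. The cause of the changes was not tested, except that fits without an array have fewer samples. The number of genes called over all genes was 0, but 1 when all probe sets of a gene were averaged and 3120 with array weights, whose estimation did not converge. With array weights 15 of the 33 beta-oxidation genes were among those called, with a smallest limma adjusted p of 0.0231. Of these 15, Bdh1 was lower in KO. The number of beta-oxidation genes higher at an unadjusted p under 0.05 was 12, where 4.99% of all genes were higher. It was 23 with array weights, where 18.4% of all genes were higher and 18.8% lower. It was 5 with the lymphocyte covariate, where 2.33% of all genes were higher. Without each array in turn it was 7 to 23, where 2.81% to 10.4% of all genes were higher. The number lower was 1, but 0 with only genes brighter than the median gene, which leaves Bdh1 out, 0 with the lymphocyte or the muscle covariate and 0 to 1 without each array. Genes with all KO arrays above all WT arrays numbered 13, and 13 to 22 without each array, where the share of all genes was 7.96%, and 10.4% to 20.8% without each array. The median, 0.40, was 0.12 with the lymphocyte covariate and 0.23 to 0.52 without each array. With the lymphocyte covariate differences turned to -0.0386 for Acad11, -0.27 for Acadsb, -0.0702 for Echs1, -0.15 for Echdc2, -0.24 for Hsd17b10, -0.0856 for Oxct1, -0.13 for Pcca and -0.16 for Mmut. Without each array in turn, differences crossed 0 for Cpt1a (-0.40 to 0.0651, and 0.10 with array weights), Acadsb (-0.14 to 0.25), Echdc2 (-0.0029 to 0.50), Hsd17b10 (-0.12 to 0.26), Pcca (-0.0026 to 0.39) and Mmut (-0.0657 to 0.27). The Atf7 probe set 10433032 ran from -2.72 to -2.56 without each array, with limma adjusted p-values from 0.0462 to 0.147.

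Same-numbered KO and WT arrays did not deviate together (correlations of -0.14, -0.08 and -0.04 across genes). The titles give only replicate numbers, and these correlations cannot exclude that the numbers pair mice. With the replicate block limma called 0 genes over all genes. At an unadjusted p under 0.05, 8 of the 33 genes were then higher, where 4.60% of all genes were. The Atf7 probe set was then at -2.66 with a limma adjusted p of 0.0792.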
